A study of Mus musculus with 15 samples.

Results

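NF-kB is a family of dimeric transcription factors that switch on activation genes in B cells, and its subunits share a DNA-binding region named after Rel. In resting cells the dimers are held in the cytoplasm by IkB proteins, which are degraded when the B cell receptor or a Toll-like receptor is engaged. Further IkB proteins act in the nucleus, where they bind DNA-bound dimers and raise or lower transcription of selected genes. Transcripts for 10 genes of this family were followed here: the subunits Rel, Rela, Relb, Nfkb1 and Nfkb2, the cytoplasmic inhibitors Nfkbia, Nfkbib and Nfkbie, and the nuclear proteins Bcl3 and Nfkbiz. All probe sets annotated to these genes were taken, which gave 18 of 45037 probe sets and 9 of 18193 genes. Nfkb1 was not analysed here. All 18 probe sets passed the filter on dim signals, and values are for the gene's brightest probe set unless another is named.

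RNA came from B cells of AM-14 mice, whose B cell receptor is a rheumatoid factor, an antibody that binds the animal's own IgG. The design has 5 groups of 3 arrays each, 15 in all: cells given F(ab')2 fragments of goat anti-mouse IgM, which crosslink the B cell receptor, cells given the phosphorothioate CpG oligodeoxynucleotide 1826, a ligand of TLR9, cells given PL2-3, an antibody to chromatin that the labels describe as a chromatin immune complex (IC), cells given anti-IgM and CpG together, and cells in media alone. All groups carried the AM-14 receptor, and no group of B cells without it was part of the design. Doses, times of stimulation, ages and the origin of the replicates (separate cultures, animals or one preparation) are not given in the sources used here, so a p-value here speaks of the spread among arrays only. The values are MAS5 signals, a linear brightness per probe set. Changes are limma estimates ± SE on the scale of log2(signal + 75.19) with the labelling kit as a term, and the words rose and fell are kept for a Benjamini-Hochberg adjusted p, over 13160 genes, under 0.05.

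Median signals per array ranged from 263 to 514. The labels name the Enzo kit for replicates 1 and 2 and the Ambion kit for replicate 3 of every group. The 2 anti-IgM+CpG arrays labelled Enzo had a 5' to 3' signal ratio for beta-actin of 0.105 and 0.193, against 0.335 to 0.747 for the Enzo arrays of the other groups. The Ambion array of anti-IgM+CpG had 0.177, within the 0.108 to 0.201 of the other Ambion arrays. Xist, the RNA of the inactive X chromosome, had signals of 321 to 589 on all 3 anti-IgM+CpG arrays, against 4252 to 15543 on the other 12. Because of the beta-actin ratios, a second limma fit was made in which the labelling class was read from them. Its value is given as the actin-based value beside each member's result of the anti-IgM+CpG arrays whose call it changes, and beside some others. That fit does not adjust for the Xist difference. All 3 anti-IgM+CpG arrays share that difference, so it cannot be told apart from the treatment. Of 7 B cell markers, 6 had probe sets, all 6 of which passed the filter. Their summed signals were 67751 to 96071 with anti-IgM, 92434 to 100226 with CpG, 47672 to 87511 with PL2-3 and 45212 to 70232 with anti-IgM+CpG, against 195262 to 261834 in media. The summed signals of 8 myeloid markers were 53824 to 94113 with anti-IgM, 46472 to 91505 with CpG, 48881 to 80369 with PL2-3 and 13157 to 145537 with anti-IgM+CpG, against 114133 to 237179 in media. T cell markers were dim, summing to 1685 to 4132 on the stimulated arrays and 5602 to 6009 on the media arrays over 7 genes. The B cell sums lay below media in every stimulated group. The myeloid sums lay below media with anti-IgM, CpG and PL2-3 and overlapped with media with anti-IgM+CpG. Those of 4 erythroid markers (29153 to 97908 stimulated, 71936 to 135244 in media) did the same. The sums of 5 NK cell markers were 1790 to 6016 on the stimulated arrays and 5727 to 7510 in media. The sums of 5 dendritic cell markers were 10849 to 15986 with anti-IgM, 13929 to 19177 with CpG, 7321 to 11285 with PL2-3 and 13377 to 25012 with anti-IgM+CpG, against 9257 to 13058 in media, so that CpG and anti-IgM+CpG lay above media. For all these lists, their part in the changes against media was not tested. In RNA from a cell population, fewer cells of a type and less RNA per cell cannot be told apart.

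Many genes of this family are themselves NF-kB targets, through kappa B elements near their start sites. RefSeq windows of 250 bases before the start site (GRCm38.p6) were at hand for 7 of the members, and the 4 with a match to the kappa B consensus on either strand were Nfkb2, Rel, Nfkbia and Nfkbie. A match is in 3.90% of all 32851 such windows and in 4.46% of 27025 genes. The windows below are shown because their members gave contrasting responses: those of Nfkb2 (chr19:46304487-46304736, plus strand), Rel (chr11:23770970-23771219, minus strand), Nfkbia (chr12:55492648-55492897, minus strand) and Nfkbie (chr17:45555450-45555699, plus strand) hold a match, in capitals. The window of Nfkbib (chr7:28766645-28766894, minus strand) holds none.
Nfkb2: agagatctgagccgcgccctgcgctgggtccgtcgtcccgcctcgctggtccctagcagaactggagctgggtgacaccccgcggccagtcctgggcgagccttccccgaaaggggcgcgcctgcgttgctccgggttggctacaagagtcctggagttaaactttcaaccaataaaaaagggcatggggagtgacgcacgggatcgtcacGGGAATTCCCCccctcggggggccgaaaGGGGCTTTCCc
Rel: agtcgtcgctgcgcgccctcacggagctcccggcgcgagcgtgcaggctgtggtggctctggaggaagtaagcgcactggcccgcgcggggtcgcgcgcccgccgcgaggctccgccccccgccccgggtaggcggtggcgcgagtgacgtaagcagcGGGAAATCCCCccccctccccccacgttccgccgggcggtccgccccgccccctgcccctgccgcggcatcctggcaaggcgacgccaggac
Nfkbia: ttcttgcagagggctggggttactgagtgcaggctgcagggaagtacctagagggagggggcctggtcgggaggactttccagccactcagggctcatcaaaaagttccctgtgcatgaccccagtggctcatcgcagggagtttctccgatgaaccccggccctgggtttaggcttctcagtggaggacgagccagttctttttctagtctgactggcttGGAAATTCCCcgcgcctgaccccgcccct
Nfkbie: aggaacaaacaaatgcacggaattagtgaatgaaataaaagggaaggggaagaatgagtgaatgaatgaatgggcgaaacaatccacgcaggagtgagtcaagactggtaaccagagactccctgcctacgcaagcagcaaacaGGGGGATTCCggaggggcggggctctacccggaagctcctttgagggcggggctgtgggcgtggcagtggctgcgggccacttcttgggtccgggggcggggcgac
Nfkbib: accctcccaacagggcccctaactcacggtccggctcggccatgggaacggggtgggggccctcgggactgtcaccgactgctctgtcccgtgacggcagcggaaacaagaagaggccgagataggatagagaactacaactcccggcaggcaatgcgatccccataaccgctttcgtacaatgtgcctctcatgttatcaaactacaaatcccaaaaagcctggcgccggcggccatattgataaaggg
In the Nfkb2 window a pair of overlapping matches began 39 and 38 bases before the start site and 1 more began 11 bases before it. Other Nfkb2 start sites had single matches 236 and 225 bases upstream. In Rel, overlapping matches began 92 and 91 bases upstream, in Nfkbia 1 match 29 bases upstream, and in Nfkbie 1 match 106 bases upstream. The windows of Rela and Bcl3 also held none. A match describes letters in the window and not binding.

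Against media, some members were called with every stimulus, some with only part of the stimuli and some with none, on their brightest probe sets. Nfkbiz and Nfkbib rose in all 4 stimulated groups. Both lost the anti-IgM call when the probe sets of a gene were averaged (0.80, adjusted p = 0.159 for Nfkbiz, and 0.44, 0.0641 for Nfkbib). Rel rose with anti-IgM and with anti-IgM+CpG, Nfkb2 rose with CpG, PL2-3 and anti-IgM+CpG, Nfkbie rose in every stimulated group but CpG, and Bcl3 fell in every stimulated group but CpG. The brightest probe sets of Rela, Relb and Nfkbia were called in none of the 4 comparisons. With anti-IgM, 4 of 9 members rose and 1 fell, where 19.5% of all genes tested were called in either direction. With CpG, 3 rose and 0 fell (30.1% of all genes called), with PL2-3, 4 rose and 1 fell (25.9%), and with anti-IgM+CpG, 5 rose and 1 fell (41.9%). The median log2 change of the 9 members was 0.32 with anti-IgM, 0.35 with CpG, 0.45 with PL2-3 and 0.64 with anti-IgM+CpG, beside -0.13, -0.21, -0.10 and -0.29 for all genes. The 4 comparisons share the same 3 media arrays.

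**Figure D1:**
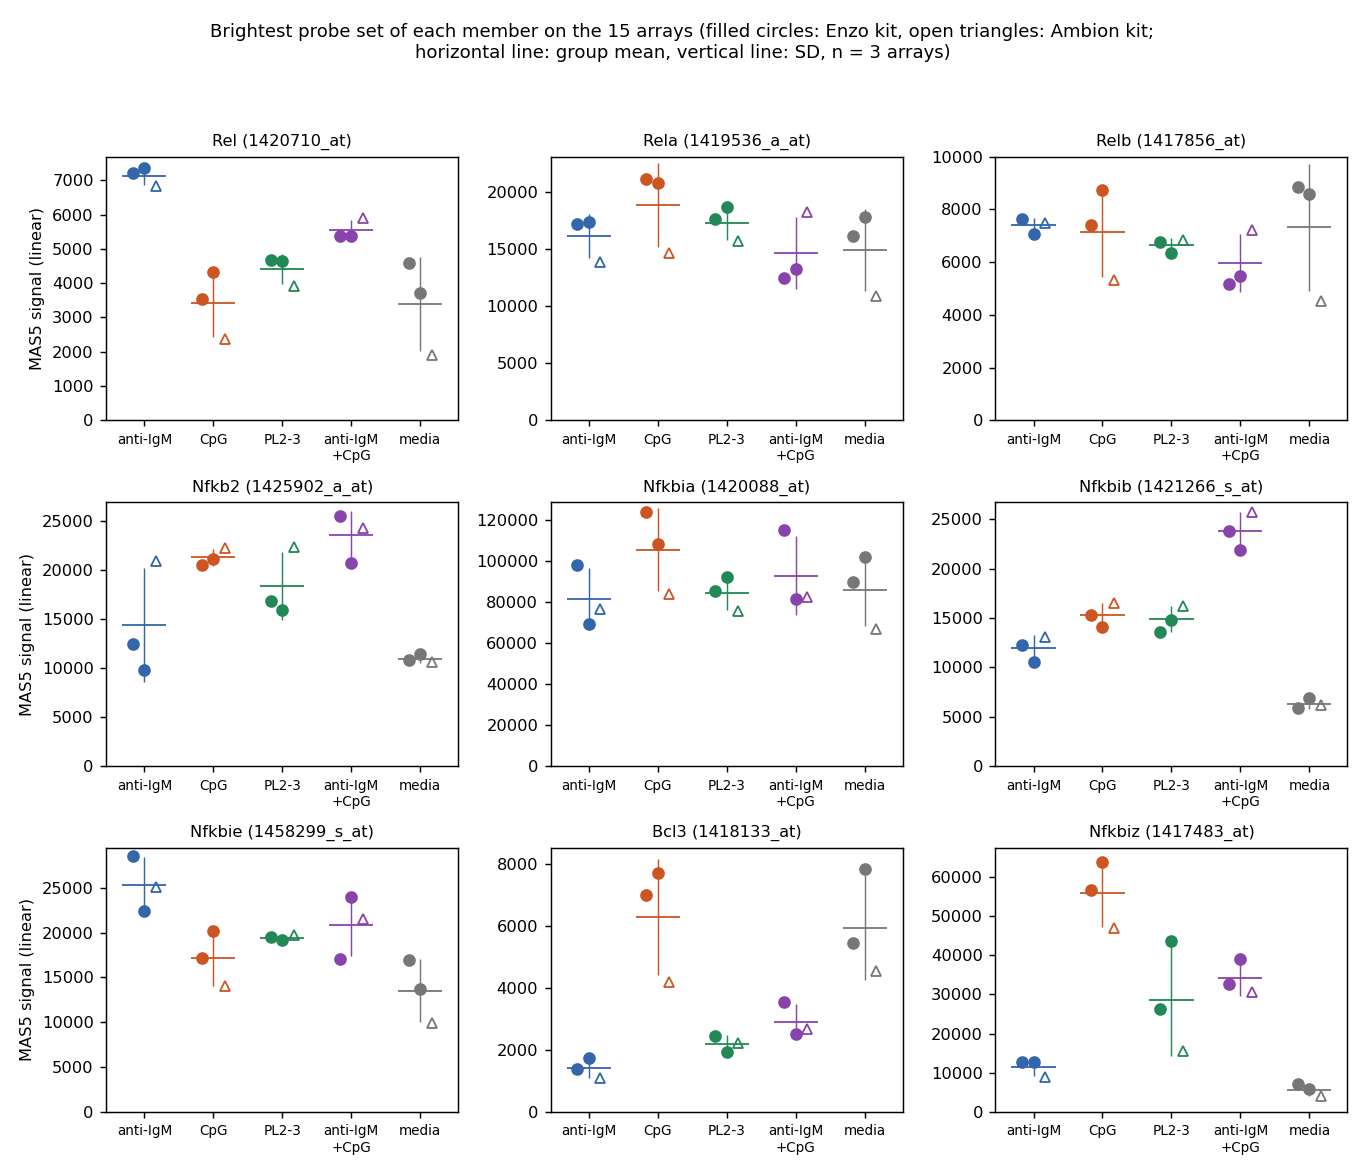
MAS5 signal (linear axis from 0) of the brightest probe set of each member on each of the 15 arrays, by group. Filled circles are Enzo arrays, open triangles Ambion arrays, horizontal lines group means and vertical lines SD (n = 3). The Nfkbib signals of the stimulated arrays are 10518 or more and those of media 6889 or less, while the Bcl3 signals of CpG and media overlap and lie above those of the other groups.

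Among the DNA-binding subunits, Rel encodes c-Rel, a subunit that mature B cells use for proliferation and survival. Its signals were 7212, 7373 and 6829.7 with anti-IgM, 3548, 4341 and 2366 with CpG, 4681, 4638 and 3918 with PL2-3 and 5383, 5376 and 5897 with anti-IgM+CpG, against 4603, 3706 and 1907 in media. The anti-IgM arrays were the highest of all, the anti-IgM+CpG arrays came next, and both groups lay wholly above media, while the CpG and PL2-3 arrays overlapped with media. Rel rose by 1.14 ± 0.22 log2 units with anti-IgM (2.20-fold, limma adjusted p = 0.00159, n = 3 arrays per group), by 0.81 on the Enzo arrays and 1.80 on the Ambion arrays. With CpG it changed by 0.05 ± 0.22 (adjusted p = 0.883) and with PL2-3 by 0.45 ± 0.22 (0.143, and 0.65 with adjusted p = 0.0498 without media replicate 1). With anti-IgM+CpG it rose by 0.78 ± 0.22 (adjusted p = 0.00862) and by 1.14 in the actin-based fit. That call was lost without media replicate 3 (0.50, adjusted p = 0.0687) or anti-IgM+CpG replicate 3 (0.56, 0.0535), and on the Enzo arrays alone (0.38, 0.130). With CpG, Rel was lower than with anti-IgM by 1.09 log2 units (-1.09 ± 0.22, adjusted p = 0.00451). The anti-IgM+CpG and CpG groups did not overlap (0.73 ± 0.22, adjusted p = 0.0688, 1.08 with adjusted p = 0.00665 in the actin-based fit and 0.96 with 0.0432 at equal array medians), and PL2-3 lay below anti-IgM on all arrays without passing the test (-0.69 ± 0.22, 0.276).

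Nfkb2 encodes a precursor that serves as an inhibitor and, once processed in the noncanonical pathway, as a DNA-binding subunit. Its signals were 12495, 9839.8 and 20985 with anti-IgM, 20551, 21169.9 and 22259 with CpG, 16852, 15988 and 22415 with PL2-3 and 25593, 20805 and 24368 with anti-IgM+CpG, against 10857, 11439 and 10656 in media. The CpG, PL2-3 and anti-IgM+CpG arrays all lay above media, and the anti-IgM arrays overlapped with media, with the Enzo arrays near it and the Ambion array at the level of the CpG arrays. Nfkb2 rose by 0.95 ± 0.19 with CpG (1.94-fold, adjusted p = 0.00108), by 0.73 ± 0.19 with PL2-3 (1.65-fold, 0.00840) and by 1.09 ± 0.19 with anti-IgM+CpG (2.13-fold, 0.000230). The PL2-3 call was lost without media replicate 3 (0.58, adjusted p = 0.0562). With anti-IgM the change was 0.32 ± 0.19 (adjusted p = 0.262), made of -0.01 on the Enzo and 0.97 on the Ambion arrays. Set against anti-IgM, it was higher with anti-IgM+CpG (0.77 ± 0.19, adjusted p = 0.0182), a call that the actin-based fit did not keep (0.54, 0.167), and that was lost without anti-IgM replicate 1 (0.0613), anti-IgM replicate 2 (0.107) or anti-IgM+CpG replicate 1 (0.0570). It was also lost with quantile normalization (0.56, adjusted p = 0.0599), without a labelling term (0.0794) and without an intensity trend (0.0547). It was 0.63 ± 0.19 higher with CpG than with anti-IgM, just short of the threshold (adjusted p = 0.0544) and within it in the actin-based fit (0.0342), without anti-IgM replicate 3 (0.89, 0.00695), on the Enzo arrays alone (0.91, 0.00901), without the anti-IgM+CpG arrays (0.0368), with quantile normalization (0.0347) and with a filter on all arrays (0.0402). The dimmer probe set 1429128_x_at gave 0.40, 0.45 and 0.49 for anti-IgM, CpG and PL2-3 against media, none of them called, and rose by 0.76 ± 0.20 with anti-IgM+CpG (adjusted p = 0.00643, actin-based 0.58 with adjusted p = 0.0599).

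Rela and Relb did not pass the test in any of the 10 comparisons, though some alternatives called them. Rela encodes the main activating subunit of the canonical pathway. Its signals ran from 13854 to 17302 with anti-IgM, 14626 to 21092 with CpG, 15646 to 18669 with PL2-3 and 12439 to 18202 with anti-IgM+CpG, against 10834 to 17748 in media, so that all groups overlapped with media. Its changes against media were 0.14 ± 0.19, 0.35 ± 0.19, 0.24 ± 0.19 and -0.02 ± 0.19 in the same order of groups (limma adjusted p from 0.180 to 0.952). The last of these was 0.26 in the actin-based fit (0.243) and 0.58 (adjusted p = 0.0330) once all arrays were shifted to the same median. The CpG change was called after that shift (0.71, adjusted p = 0.0157) and without the anti-IgM+CpG arrays (0.35, 0.0402). Without anti-IgM+CpG replicate 3, Rela differed between that group and each other stimulated group, at -0.67 (adjusted p = 0.00646) for anti-IgM+CpG against CpG, -0.46 (0.0392) for anti-IgM+CpG against anti-IgM and 0.57 (0.0196) for PL2-3 against anti-IgM+CpG. The difference between CpG changes was then -0.81 (adjusted p = 0.0157), and on the Enzo arrays alone anti-IgM+CpG against CpG was -0.70 (0.0109). Relb encodes the partner of the processed Nfkb2 product. It had signals of 7087 to 7625 with anti-IgM, 5326 to 8722 with CpG, 6366 to 6829 with PL2-3 and 5162 to 7233 with anti-IgM+CpG, against 4541 to 8839.6 in media. Media replicate 3, an Ambion array, was the lowest of the 15 and media replicate 1 the highest. The changes of Relb against media lay between -0.25 ± 0.22 (anti-IgM+CpG) and 0.07 ± 0.22 (anti-IgM), with adjusted p from 0.388 to 0.995, and without media replicate 3 that of anti-IgM+CpG was -0.55 (0.0476). On the Enzo arrays alone Relb was lower with anti-IgM+CpG than in media (-0.70, adjusted p = 0.00540) and than with CpG (-0.59, 0.0393).

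**Figure D2:**
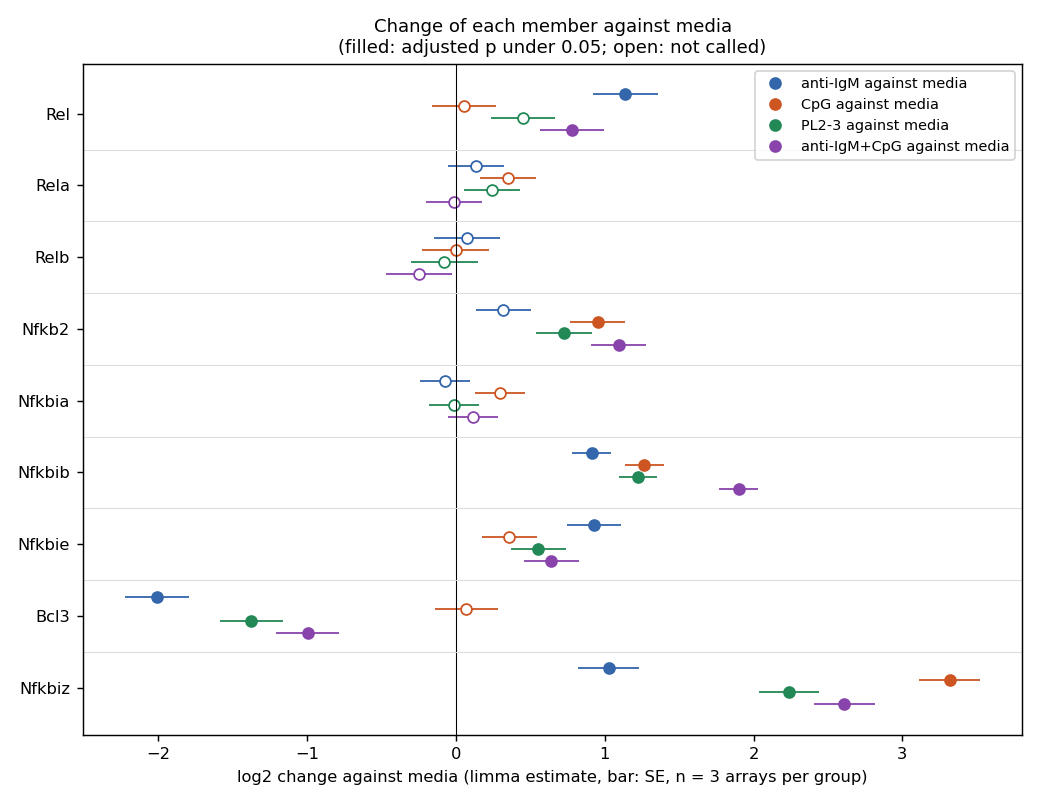
Log2 change of each member against media (limma estimate, bars SE, n = 3 arrays per group), with filled points for an adjusted p under 0.05 and open points otherwise. Nfkbiz has the largest rise (3.32 with CpG) and Bcl3 the largest fall (-2.01 with anti-IgM) of the members, and the changes of Rela and Relb lie between -0.25 and 0.35.

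Among the cytoplasmic inhibitors, Nfkbib encodes IkB beta. Its signals were 12299, 10518 and 13104 with anti-IgM, 15287, 14129 and 16491 with CpG, 13545, 14836 and 16234 with PL2-3 and 23788, 21842 and 25700.2 with anti-IgM+CpG, against 5853, 6889 and 6211 in media. Every stimulated array lay above every media array, every anti-IgM+CpG array lay above every array with a single stimulus, and the CpG and PL2-3 arrays overlapped. Nfkbib rose by 0.91 ± 0.13 with anti-IgM (1.88-fold, adjusted p = 0.000203), by 1.27 ± 0.13 with CpG (2.41-fold, 5.21e-06), by 1.22 ± 0.13 with PL2-3 (2.34-fold, 1.22e-05) and by 1.90 ± 0.13 with anti-IgM+CpG (3.73-fold, 1.04e-07). Within each kit these changes were 0.83, 1.20, 1.15 and 1.83 (Enzo) and 1.07, 1.40, 1.38 and 2.04 (Ambion). With both agents it was higher than with anti-IgM (0.99 ± 0.13, adjusted p = 0.000326) and than with CpG (0.63 ± 0.13, 0.0101, but 0.0601 without CpG replicate 2 and 0.43 with 0.131 when probe sets were averaged). PL2-3 lay below anti-IgM+CpG (-0.68 ± 0.13, adjusted p = 0.0174, actin-based -0.59 with adjusted p = 0.0765), a call also lost without any 1 of the PL2-3 arrays (0.0552 to 0.0825), with quantile normalization (-0.46, 0.101), with averaged probe sets (-0.55, 0.0816), without a labelling term (0.0742) and without an intensity trend (0.0572). The CpG change with anti-IgM present minus that without it was -0.28 ± 0.18 (adjusted p = 0.456). A much dimmer probe set of the gene, 1446718_at, had signals of 442 to 857 over all 15 arrays, was called in no comparison and changed by -0.04, 0.00, -0.19 and 0.22 against media.

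Nfkbie encodes IkB epsilon, an inhibitor that binds Rel and Rela dimers. Its signals were 28518, 22399.8 and 25113 with anti-IgM, 17195, 20243 and 14019.8 with CpG, 19506, 19138 and 19690.3 with PL2-3 and 17068, 24009 and 21512 with anti-IgM+CpG, against 16988, 13663 and 9939 in media. The anti-IgM, PL2-3 and anti-IgM+CpG arrays lay above media, the last by a narrow margin, and the CpG arrays overlapped with it. It rose by 0.93 ± 0.18 with anti-IgM (1.90-fold, adjusted p = 0.00220), by 0.55 ± 0.18 with PL2-3 (1.47-fold, 0.0356) and by 0.64 ± 0.18 with anti-IgM+CpG (1.56-fold, 0.0108), and changed by 0.36 ± 0.18 with CpG (0.159). The PL2-3 call was lost when media replicate 2 (adjusted p = 0.0805), media replicate 3 (0.196) or any 1 of the 3 PL2-3 arrays was left out (0.0577 to 0.148). It was lost as well on the Enzo arrays alone (0.34, adjusted p = 0.293), with quantile normalization (0.41, 0.105), without a labelling term (0.0664) and without an intensity trend (0.0754). The anti-IgM+CpG call was lost without media replicate 3 (0.46, adjusted p = 0.0745), with quantile normalization (0.29, 0.249) and on the Enzo arrays alone (0.41, 0.145). The CpG change was called at equal array medians (0.72, adjusted p = 0.0379) and with averaged probe sets (0.64, 0.0340). On the other probe set, 1431843_a_at, Nfkbie rose in all 4 groups, by 1.27 ± 0.27 with anti-IgM, 0.93 ± 0.27 with CpG, 1.0 ± 0.27 with PL2-3 and 0.81 ± 0.27 with anti-IgM+CpG (adjusted p = 0.00435, 0.0185, 0.0135 and 0.0253). No difference between stimulated groups passed the test for this gene, the largest being -0.57 ± 0.18 for CpG against anti-IgM (adjusted p = 0.0843), which was called in the fit without the anti-IgM+CpG arrays (-0.57, 0.0398).

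Nfkbia encodes IkB alpha, the inhibitor that is resynthesised soon after NF-kB enters the nucleus, and its 5 probe sets did not give the same answer. The brightest, 1420088_at, had signals of 69411 to 98367 with anti-IgM, 83978 to 124226 with CpG, 75588 to 92096 with PL2-3 and 81375 to 115016 with anti-IgM+CpG, against 66676 to 101850.2 in media, and all groups overlapped. Its changes against media lay between -0.08 ± 0.17 (anti-IgM) and 0.30 ± 0.17 (CpG), with adjusted p from 0.205 to 0.967. The CpG change was called with quantile normalization (0.41, adjusted p = 0.00458), at equal array medians (0.66, 0.0347) and when the probe sets were averaged (0.63, 0.00384). At equal medians the anti-IgM+CpG change was called too (0.71, adjusted p = 0.0157), and CpG against anti-IgM was called with quantile normalization (0.36, 0.0399) and with averaged probe sets (0.54, 0.0325). On 1448306_at the signals were 27478, 28235 and 37475 with anti-IgM, 55256, 61079.6 and 62486 with CpG, 34358, 39119.7 and 40289 with PL2-3 and 46970.1, 52013 and 55488.5 with anti-IgM+CpG, against 27514, 32207 and 21264 in media. On this probe set every CpG, PL2-3 and anti-IgM+CpG array lay above media. It rose by 1.16 ± 0.17 with CpG (adjusted p = 0.000119, over probe sets), 0.51 ± 0.17 with PL2-3 (0.0402) and 0.95 ± 0.17 with anti-IgM+CpG (0.000375), and changed by 0.21 ± 0.17 with anti-IgM (0.467). The probe set 1449731_s_at rose by 0.72 ± 0.17 with CpG (0.00551) and 0.65 ± 0.17 with anti-IgM+CpG (0.00650). The probe set 1438157_s_at rose by 0.74 ± 0.18 with anti-IgM+CpG (adjusted p = 0.00355, actin-based 0.46 with adjusted p = 0.0708). The last, 1420089_at, followed the labelling class. Its signals were 1219, 1919 and 1648 with anti-IgM+CpG. In the other 4 groups the Enzo arrays read 4928 to 8724 and the Ambion arrays 1539.5 to 1971. It fell by 1.13 log2 units with anti-IgM+CpG against media with the kits as labelled (-1.13 ± 0.34, adjusted p = 0.0152) and changed by 0.06 in the actin-based fit (0.865).

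Of the nuclear IkB proteins, Nfkbiz encodes IkB zeta, a coactivator that genes such as Il6 need for their induction through Toll-like receptors. Its signals were 12713, 12763 and 8804 with anti-IgM, 56676, 63991 and 46968 with CpG, 26379.7, 43803 and 15538 with PL2-3 and 32713, 39151 and 30529 with anti-IgM+CpG, against 7182, 5745 and 4013 in media. Each stimulated group lay wholly above media, CpG lay wholly above every other group, and PL2-3, the group with the widest spread, lay wholly above anti-IgM and overlapped with anti-IgM+CpG. Nfkbiz rose by 3.32 ± 0.20 with CpG (9.97-fold, adjusted p = 1.59e-07), by 2.61 ± 0.20 with anti-IgM+CpG (6.11-fold, 2.88e-07, actin-based 3.06), by 2.24 ± 0.20 with PL2-3 (4.72-fold, 3.70e-06) and by 1.03 ± 0.20 with anti-IgM (2.04-fold, 0.00216). In the order CpG, anti-IgM+CpG, PL2-3, anti-IgM and media, the neighbours CpG and anti-IgM+CpG did not differ by the test (-0.71 ± 0.20 for anti-IgM+CpG against CpG, adjusted p = 0.0596, actin-based -0.26 with adjusted p = 0.752, and -0.85 with adjusted p = 0.0198 without anti-IgM+CpG replicate 3). They differed as well with quantile normalization (-0.90, adjusted p = 0.0370), with averaged probe sets (-1.98, 0.00830) and with a filter on all arrays (0.0476). Nor did PL2-3 against anti-IgM+CpG (-0.37 ± 0.20, adjusted p = 0.310, actin-based -0.82 with 0.107). PL2-3 was higher than anti-IgM (1.21 ± 0.20, adjusted p = 0.00804, and 0.0506 without anti-IgM replicate 1) and lower than CpG (-1.08 ± 0.20, 0.00594, and 0.0521 without PL2-3 replicate 3). Neither was called without a labelling term (0.156 and 0.0966 as adjusted p) or with averaged probe sets (0.463 and 0.0562), nor the first without an intensity trend (0.0568) or the second on the Enzo arrays alone (-0.82, 0.104). Nfkbiz was higher with anti-IgM+CpG than with anti-IgM (1.58 ± 0.20, adjusted p = 0.000284), but not called with averaged probe sets (0.49, 0.426).

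The CpG change of Nfkbiz was 1.58 ± 0.20 in the presence of anti-IgM and 3.32 ± 0.20 without it. The difference between these changes was -1.73 ± 0.29 (limma adjusted p = 0.0112, n = 3 arrays per group), and -1.29 in the actin-based fit (0.0282). Of the 9 members Nfkbiz alone was called for this difference, with 2.50% of all genes called (0.836% higher, 1.66% lower), and Bcl3 (0.94 ± 0.30, adjusted p = 0.105) was called besides in the actin-based fit (1.24, 0.0399). The other probe sets of Nfkbiz differed more between kits than the brightest one. On 1448728_a_at the signals were 2559.7, 3318 and 416 with anti-IgM, 31441, 32886 and 4962 with CpG, 8019, 9129 and 775 with PL2-3 and 1089, 2915 and 2450.3 with anti-IgM+CpG, against 1219, 2038 and 419 in media. In each group but anti-IgM+CpG the Ambion array, given last, was well below both Enzo arrays. The Ambion minus Enzo term was -1.99 for 1448728_a_at and -1.88 for 1457404_at, against -0.58 for the brightest probe set, and only 0.637% and 0.867% of tested probe sets had a lower term. Both rose with CpG against media, by 3.97 ± 0.56 (adjusted p = 0.000106) and 2.51 ± 0.43 (0.000531), and with PL2-3, by 1.85 ± 0.56 (0.0274) and 1.48 ± 0.43 (0.0223). With anti-IgM neither was called, at 0.57 ± 0.56 (adjusted p = 0.571) and 0.82 ± 0.43 (0.241, and 0.0479 in the actin-based fit). With anti-IgM+CpG they changed by 0.90 ± 0.56 (0.215) and 0.36 ± 0.43 (0.529) with the kits as labelled, and rose by 2.63 (5.56e-05) and 1.90 (0.000194) in the actin-based fit.

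**Figure D3:**
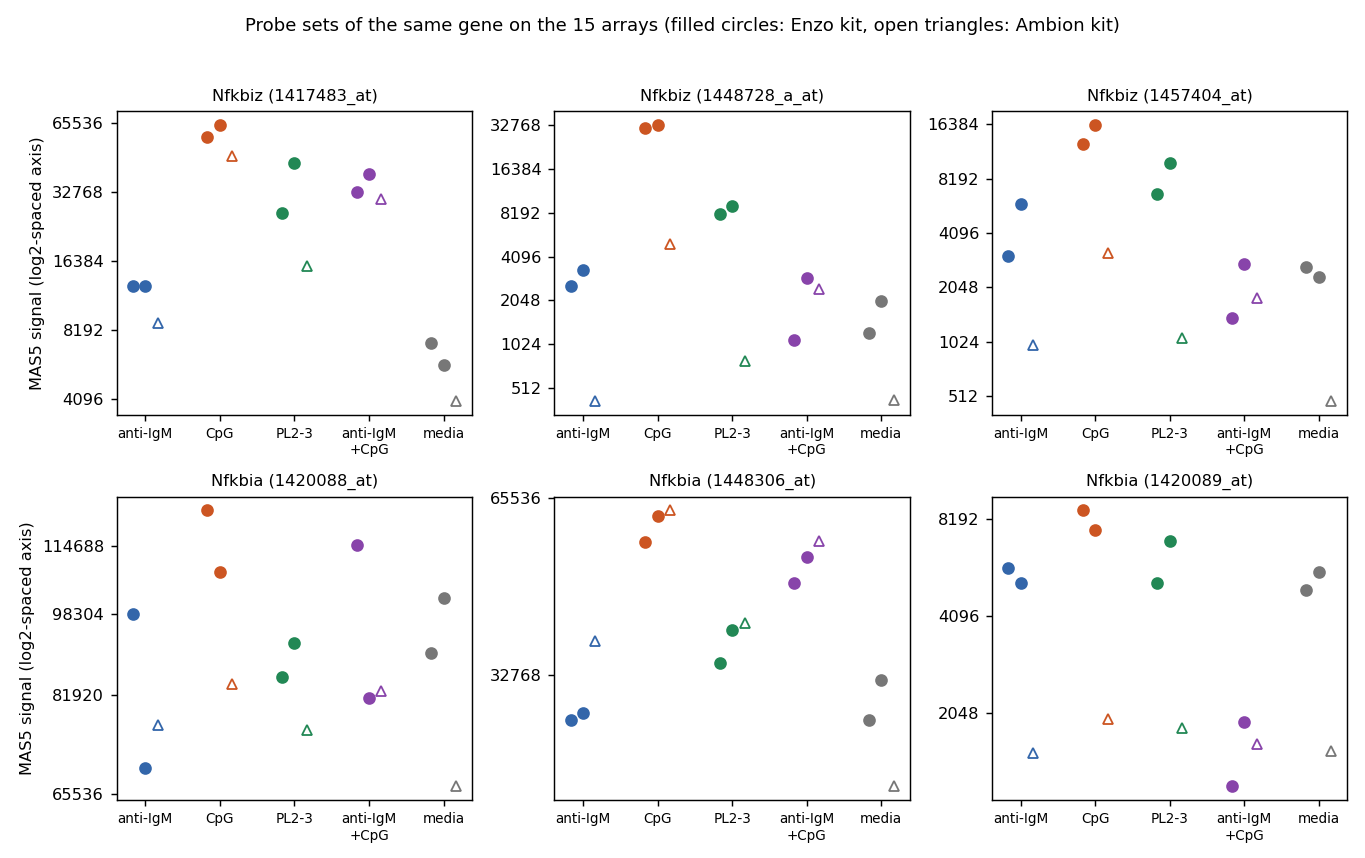
MAS5 signals (log2-spaced axes) of the 3 probe sets of Nfkbiz and of 3 of the 5 probe sets of Nfkbia on the 15 arrays, with filled circles for the Enzo and open triangles for the Ambion kit. On 1448728_a_at, 1457404_at and 1420089_at the Ambion arrays of the other groups lie below the Enzo arrays of the same group. There all 3 anti-IgM+CpG arrays lie below the Enzo arrays of CpG and PL2-3, and they overlap with media. On 1417483_at and 1448306_at the groups separate more than the kits.

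Bcl3 encodes a nuclear IkB protein that binds dimers of the Nfkb1 and Nfkb2 products. Its signals were 1393, 1740.3 and 1084 with anti-IgM, 6986, 7693.5 and 4168 with CpG, 2455, 1926 and 2203 with PL2-3 and 3543, 2495 and 2654 with anti-IgM+CpG, against 5449, 7839.8 and 4532 in media. The CpG and media arrays overlapped, and every anti-IgM, PL2-3 and anti-IgM+CpG array lay below both. Bcl3 fell by 2.01 log2 units with anti-IgM (-2.01 ± 0.21, 0.248 of the media level, adjusted p = 2.38e-05) and by 1.38 with PL2-3 (-1.38 ± 0.21, 0.385 of media, 0.000209). With anti-IgM+CpG it fell too (-1.0 ± 0.21, 0.501 of media, adjusted p = 0.00143, actin-based -0.70 with adjusted p = 0.0262), and after a shift of all arrays to the same median the change was -0.40 (0.198). With CpG it changed by 0.07 ± 0.21 (0.836). Bcl3 was 2.08 ± 0.21 higher with CpG than with anti-IgM (4.22-fold, adjusted p = 8.45e-06), 1.44 lower with PL2-3 than with CpG (-1.44 ± 0.21, 0.000733), and 1.01 ± 0.21 higher with anti-IgM+CpG than with anti-IgM (0.00874, and 0.0531 without a labelling term). With both agents it was lower than with CpG (-1.07 ± 0.21, adjusted p = 0.00850), a call lost in the actin-based fit (-0.77, 0.102), at equal array medians (-0.83, 0.0605), without a labelling term (0.0553), without CpG replicate 2 (0.0572) and without anti-IgM+CpG replicate 2 (0.0559). PL2-3 against anti-IgM (0.63 ± 0.21, 0.352) and against anti-IgM+CpG (-0.38 ± 0.21, 0.323, actin-based -0.68 with adjusted p = 0.246) were not called, though PL2-3 lay wholly above anti-IgM.

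Between the stimulated groups, 1 to 4 of the 9 members were called in each comparison. The share of all genes called is given beside each count, and the counts were not tested against these shares. PL2-3 against anti-IgM gave 1 higher member, Nfkbiz (0.691% of all genes called, 0.342% higher and 0.350% lower), and PL2-3 against CpG gave 2 lower members, Nfkbiz and Bcl3 (3.20% of all genes, 1.60% in each direction). PL2-3 against anti-IgM+CpG gave 1 lower member, Nfkbib (1.84%, 1.32% higher and 0.517% lower), which the actin-based fit did not call. CpG against anti-IgM gave 2 higher members, Bcl3 and Nfkbiz, and 1 lower, Rel (6.41%, 2.57% higher and 3.84% lower). Anti-IgM+CpG against anti-IgM gave 4 higher members, Nfkb2, Nfkbib, Bcl3 and Nfkbiz (9.07%, 3.72% higher and 5.36% lower), all but Nfkb2 called in the actin-based fit too. Anti-IgM+CpG against CpG gave 1 higher, Nfkbib, and 1 lower, Bcl3 (4.53%, 1.91% higher and 2.61% lower). The mean signal with PL2-3 lay between those with anti-IgM and with CpG for 8 of the 9 members, Relb being the exception. Of these, Nfkbiz differed from both by the test and Bcl3 from CpG, and for the other members neither difference was called. The same count over all genes tested was not made, so 8 of 9 cannot be read as particular to these members.

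**Figure D4:**
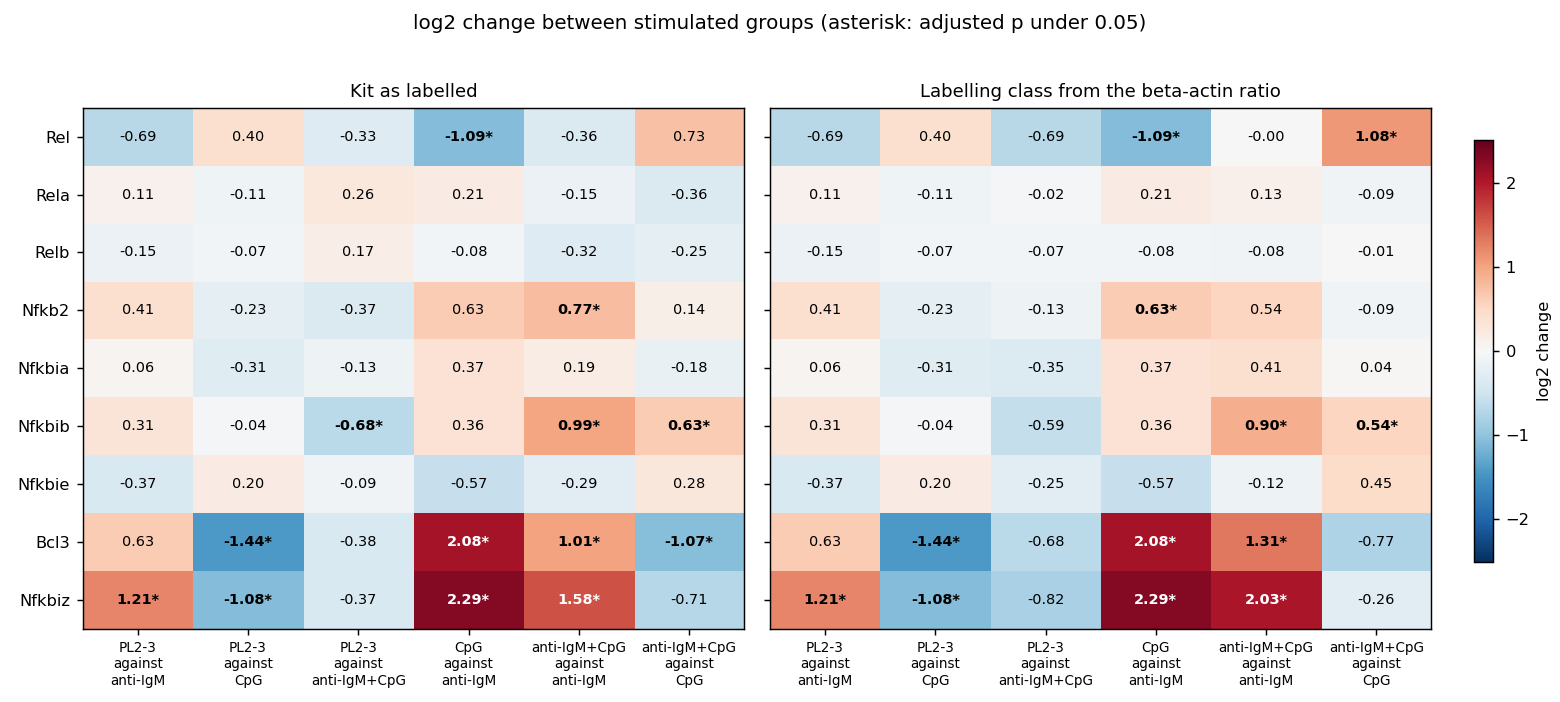
Log2 changes of the 9 members between stimulated groups (colour and number, asterisk for an adjusted p under 0.05), with the kit as labelled on the left and the labelling class from beta-actin on the right. Rel is lower, and Bcl3 and Nfkbiz are higher, with CpG than with anti-IgM. Outside anti-IgM+CpG the beta-actin classes are the same as the kits. Changes between the other groups are therefore equal in both panels by construction, and only their adjusted p can differ.

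Across the 15 arrays the log2 signals of some members ran in parallel, which is a description, since the arrays share groups and kits. Pearson's r was 0.89 for Rel and Nfkbie, 0.87 for Nfkb2 and Nfkbib, 0.77 for Nfkbib and Nfkbiz and 0.75 for Rela and Relb, and -0.66 for Nfkbie and Bcl3 and -0.61 for Rel and Bcl3. Among all genes tested, the patterns most like that of Rel were those of Fam167a (0.93), Litaf (0.92) and Rgs1 (0.91), the last a regulator of G protein signalling in B cells. Nfkbiz was closest to Cflar (0.95), an inhibitor of caspase activation, Pcgf5 (0.94) and Pfdn2 (0.94). Nfkb2 was closest to Mrpl22 (0.96), a mitochondrial ribosomal protein, Rpp30 (0.95), a subunit of ribonuclease P, and Ahcy (0.95), which hydrolyses S-adenosylhomocysteine. Relb was closest to Thsd7a (0.86), Rai1 (0.84) and Srrm2 (0.84), lower than the nearest genes of Rel, Nfkb2 and Nfkbiz. Thsd7a was dim, with group means of 204 to 393 where array medians were 263 to 514.

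The remaining genes of the pathway were followed in 4 lists. Of the textbook NF-kB targets, 10 of 20 rose and 2 fell with anti-IgM, 16 rose and 1 fell with CpG, 15 rose and 2 fell with PL2-3, and 16 rose and 2 fell with anti-IgM+CpG, where 10.1%, 13.1%, 12.4% and 17.2% of all genes rose. Their median log2 changes were 0.62, 1.72, 1.10 and 1.45 in that order. In the actin-based fit 18 rose and 2 fell with anti-IgM+CpG. The cytokine gene Il6 had signals of 767, 243 and 344 with anti-IgM, 17208, 14969.98 and 12485 with CpG, 5487, 5946 and 3184 with PL2-3 and 5863, 5423 and 4238 with anti-IgM+CpG, against 794, 608 and 155 in media. The anti-IgM arrays overlapped with media and all arrays with CpG, PL2-3 or both agents lay above it. Il6 changed by -0.09 ± 0.33 with anti-IgM (adjusted p = 0.881) and rose in the other 3 groups, by 4.85 ± 0.33 with CpG, 3.21 ± 0.33 with PL2-3 and 3.34 ± 0.33 with anti-IgM+CpG (adjusted p = 2.18e-07, 8.64e-06 and 1.63e-06). The chemokines Ccl3 and Ccl4, the transcription factor Myc and the cell cycle gene Ccnd2 rose in all 4 groups, Ccl3 by 2.52 to 3.61, Ccl4 by 2.03 to 2.72, Myc by 2.10 to 2.25 and Ccnd2 by 1.01 to 2.55. Ltb, which encodes lymphotoxin beta, fell in all 4 groups, with changes of -2.79, -2.48, -2.80 and -3.09. Birc3, a ubiquitin ligase and caspase inhibitor, was chosen after its values were seen: it fell with anti-IgM (-1.08 ± 0.19), PL2-3 (-1.11 ± 0.19) and anti-IgM+CpG (-1.04 ± 0.19) and changed by 0.02 ± 0.19 with CpG.

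Genes of the kinase complex and its upstream activators were mostly not called: of 16 tested, 0 rose and 3 fell with anti-IgM, 1 rose and 2 fell with CpG, 1 rose and 4 fell with PL2-3, and 1 rose and 4 fell with anti-IgM+CpG (1 and 2 in the actin-based fit). The shares of all genes that fell were 9.32%, 16.9%, 13.5% and 24.8%. Prkcb, the protein kinase C that couples the B cell receptor to the kinase complex, fell with anti-IgM (-1.10 ± 0.17, adjusted p = 0.000413), PL2-3 (-1.27 ± 0.17, 7.53e-05) and anti-IgM+CpG (-1.65 ± 0.17, 3.01e-06) and changed by -0.24 ± 0.17 with CpG (0.309). Malt1, the protease of the same coupling complex, fell with CpG (-1.27 ± 0.24, 0.000820) and changed by 0.16 ± 0.24 with anti-IgM (0.691). The Malt1 signals with anti-IgM+CpG (2474, 3737 and 3143) also lay below media (5421, 4732 and 3916). Those with PL2-3 (5581, 5134 and 1975) overlapped with media. Among 10 feedback deubiquitinases and their partners, Tnfaip3, which encodes A20, rose with CpG (0.92 ± 0.20, adjusted p = 0.00212) and anti-IgM+CpG (0.99 ± 0.20, 0.000796). It changed by 0.38 ± 0.20 with PL2-3 (0.170) and 0.10 ± 0.20 with anti-IgM (0.768). Cyld, a deubiquitinase that restrains the pathway, fell with anti-IgM (-1.07 ± 0.28), PL2-3 (-1.18 ± 0.28) and anti-IgM+CpG (-0.97 ± 0.28). The CpG signals of Cyld (5400, 5044 and 5826) also lay below those of media (9360, 8420 and 9325). Pdlim2, a ligase for nuclear Rela, fell in all 4 groups (-1.08 to -2.09). In this list 0 rose and 3 fell with anti-IgM, 2 and 3 with CpG, 0 and 2 with PL2-3, and 2 and 3 with anti-IgM+CpG (2 and 2 in the actin-based fit). Rnf11, also in this list, fell with anti-IgM+CpG by 1.94 with the kits as labelled (-1.94, adjusted p = 0.00972) and changed by -0.17 in the actin-based fit (0.700). Of 8 other IkB-like and regulatory genes, 0 were called with anti-IgM, 3 rose with CpG, 1 rose and 1 fell with PL2-3, and 2 rose with anti-IgM+CpG, where the actin-based fit had 2 higher and 2 lower. Over all genes, 10.1% rose with anti-IgM, 13.1% with CpG, 12.4% with PL2-3 and 17.2% with anti-IgM+CpG, and the shares that fell are given above. The lists are short, and their counts were not tested against these shares. Commd1, which promotes turnover of Rela, rose with CpG (0.86), PL2-3 (0.58) and anti-IgM+CpG (0.82), and Nkrf, a repressor of NF-kB targets, with CpG (0.84) and anti-IgM+CpG (1.24, actin-based 0.80).

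**Figure D5:**
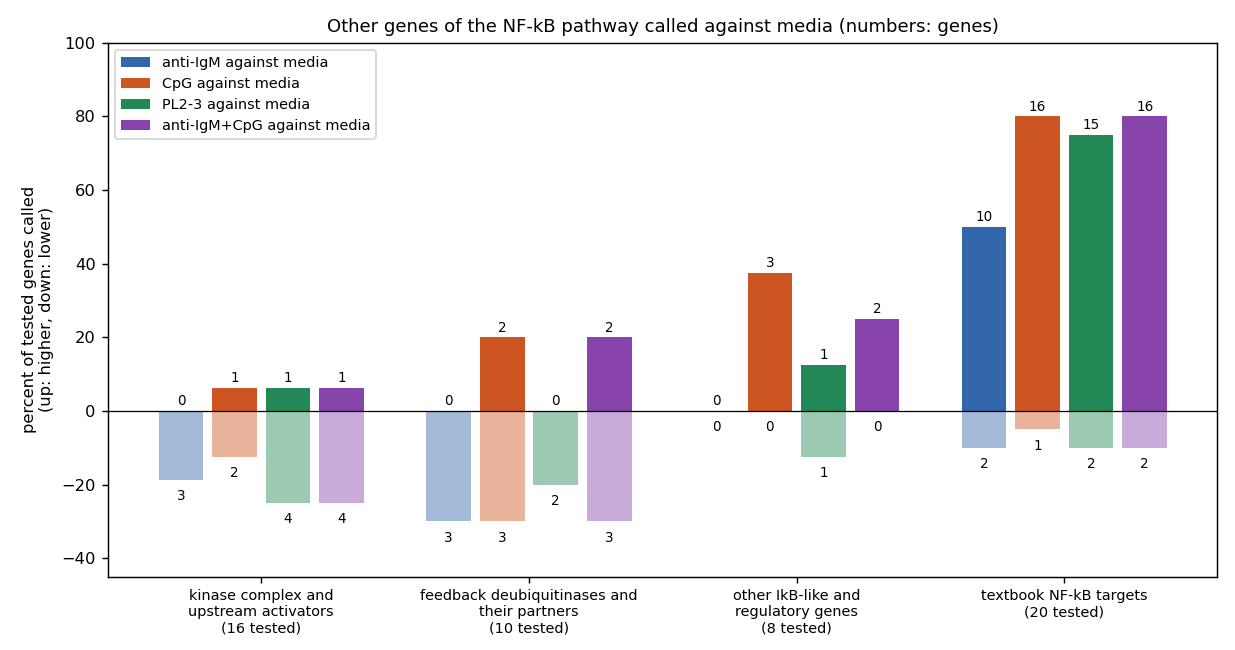
Percent of the tested genes of 4 pathway lists that were called higher (upward bars) or lower (downward, pale bars) against media in each stimulated group, with the number of genes at each bar. Of the 20 textbook targets, 10 to 16 were called higher, and of the 16 kinase complex and activator genes 0 or 1.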

How the data were processed

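Each sample is 1 Affymetrix mouse array of biotin-labelled total RNA. The deposited table holds MAS5 signals, a linear intensity per probe set, per the submitters' processing notes, with neither version nor scaling target named. The 64 control probe sets, which held all 3 empty cells, were left out of the tests. Gene symbols came from the platform annotation: 34945 of 45037 probe sets had 1 symbol, 932 several and 9160 none, and only the first kind was used. A gene was read from its brightest probe set on average (18193 genes), and 13160 genes that reached the array median on 3 or more arrays were tested. The other probe sets were tested over all 23059 that passed the same filter. Values were log2(signal + 75.19), the 20th percentile of all signals being the pseudocount.

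Groups followed the titles. The treatment field of the anti-IgM+CpG samples reads none. Group (5 levels) and labelling kit were the terms of a linear model (9 residual degrees of freedom), fitted with limma 3.58.1 in R 4.3.3 (jsonlite 2.0.0) and tested two-sided with eBayes with an intensity trend, and p-values were adjusted within a comparison by Benjamini-Hochberg. Each stimulated group was compared with media and with each other stimulated group, and the CpG change with anti-IgM was compared with that without it. The smallest exact two-sided permutation p for 3 against 3 arrays is 0.1, above 0.05, and precision is limited by how few arrays there are. The procedure was tested on simulated data.

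The members, the pathway and marker lists and the tests were chosen with earlier results of these data known. Named genes were all members, up to 4 called genes of each pathway list with the largest changes in each comparison against media, and the 3 genes most correlated with Rel, Relb, Nfkb2 and Nfkbiz. The text prints some of these, and Birc3 was added after its values were seen. Outside anti-IgM+CpG, the deviations from the group means of all 18 same-numbered pairs correlated at 0.12 to 0.68, against 8 of 36 pairs with different numbers above 0.1. For same-numbered pairs that include anti-IgM+CpG the range was -0.19 to 0.07. Replicate 3 is the Ambion array of each group, and the kit was not taken out first. Pairs of the same kit with different numbers were not counted apart, so pairing apart from the kit was not tested. Promoter windows were RefSeq's (GRCm38.p6), searched for the kappa B consensus on both strands. Figures were drawn with Python 3.11.15, pandas 2.3.3 and matplotlib 3.10.9. Alternatives covered scaling, pseudocount, filter, labelling term, replicate block, probe set choice, the eBayes trend and left-out arrays.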

Additional observations from a re-analysis of the deposited data

Results flagged for a closer look

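By a test of the difference itself, the CpG change of Nfkbiz, the gene of the nuclear protein IkB zeta, differed between groups with and without anti-IgM. Adding CpG to anti-IgM changed Nfkbiz by 1.58 ± 0.20 log2 units, and CpG without anti-IgM changed it by 3.32 ± 0.20, a difference of -1.73 ± 0.29 (limma adjusted p = 0.0112, n = 3 arrays per group). In the actin-based fit the difference was -1.29 (0.0282). On the other probe sets it was -3.64 ± 0.79 (1448728_a_at, adjusted p = 0.0341, actin-based -1.91 with adjusted p = 0.0649) and -2.97 ± 0.61 (1457404_at, 0.0286, actin-based -1.43 with adjusted p = 0.0977). The call was lost without a labelling term (0.0783) and without an intensity trend in eBayes (0.0619), and was kept with any 1 of the 12 arrays of the 4 groups in it left out. The 2 anti-IgM+CpG arrays labelled Enzo had beta-actin ratios in the range of Ambion arrays, and all 3 had Xist signals of 321 to 589, against 4252 to 15543 on the other 12. Low Xist was shared by all 3 anti-IgM+CpG arrays, so in this result it cannot be told apart from the treatment. The part of the beta-actin ratios was not tested beyond these values. Groups of 3 arrays are too small for a test of single outlying arrays.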

How the results depend on the processing

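Of 1890 values of single members under an alternative, 1803 kept their direction and their side of the threshold, 53 lost a call, 33 gained one and 1 reversed: Rela in anti-IgM+CpG against media, -0.02 as reported, was 0.58 (adjusted p = 0.0330) with all arrays shifted to the same median, a shift that raised the median change of all genes from -0.29 to 0.30 there. The counts of members called stayed within 1.5 times for 177 of 210 alternatives. With quantile normalization the count was 0 for PL2-3 against anti-IgM+CpG (1 as reported) and 5 for CpG against anti-IgM (3), and with equal medians it was 6 for CpG against media (3). Without a labelling term it was 0 for PL2-3 against anti-IgM (1), 1 for PL2-3 against CpG (2), 0 for PL2-3 against anti-IgM+CpG, 2 for anti-IgM+CpG against anti-IgM (4), 1 for anti-IgM+CpG against CpG (2) and 0 for the difference between CpG changes (1). The labelling class from beta-actin gave 0 for PL2-3 against anti-IgM+CpG and 2 for the difference. The Enzo arrays alone gave 1 for PL2-3 against CpG and 4 for anti-IgM+CpG against CpG. Averaging the probe sets of each gene gave 3 for anti-IgM against media (5), 5 for CpG against media, 0 for PL2-3 against anti-IgM, 1 for PL2-3 against CpG and 0 for PL2-3 against anti-IgM+CpG. Without an intensity trend the counts were 0 for PL2-3 against anti-IgM, 0 for PL2-3 against anti-IgM+CpG and 0 for the difference, and without the anti-IgM+CpG arrays CpG against anti-IgM gave 5. With 1 array left out, the range was 3 to 6 for PL2-3 against media (5), 0 to 1 for PL2-3 against anti-IgM, 1 to 2 for PL2-3 against CpG, 0 to 2 for PL2-3 against anti-IgM+CpG, 0 to 4 for anti-IgM+CpG against CpG and 1 to 2 for the difference. For these changes the cause was not tested. With the replicate block in place of the kit the counts were 5, 3, 5 and 6 against media in the order anti-IgM, CpG, PL2-3 and anti-IgM+CpG, and it changed no call of a member.

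Over all genes, equal medians moved the percentage of calls that were higher from 52.1% to 77.1% for anti-IgM against media, from 43.7% to 74.6% for CpG, from 47.8% to 64.7% for PL2-3 and from 40.9% to 79.2% for anti-IgM+CpG (54.5% with quantile normalization). Between stimulated groups it was 27.6% and not 49.9% for PL2-3 against CpG, 13.4% and not 71.9% for PL2-3 against anti-IgM+CpG (55.7% with quantile normalization), 50.8% and not 40.1% for CpG against anti-IgM, 82.5% and not 41.0% for anti-IgM+CpG against anti-IgM and 67.2% and not 42.3% for anti-IgM+CpG against CpG. The number of genes called ran over the alternatives from 1427 to 3185 for anti-IgM against media (2561 as reported), 2474 to 4579 for CpG against media (3955), 34 to 164 for PL2-3 against anti-IgM (91), 208 to 634 for PL2-3 against CpG (421), 24 to 1667 for PL2-3 against anti-IgM+CpG (242), 496 to 1149 for CpG against anti-IgM (843), 353 to 2137 for anti-IgM+CpG against anti-IgM (1194), 220 to 1602 for anti-IgM+CpG against CpG (596) and 24 to 1315 for the difference (329).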
